A study of Mus musculus with 48 samples.

Results

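Of the 478 genes compared between pairs of rearing groups in mouse microglia, 8 are named as proteasome subunits or deubiquitinases. They were chosen by symbol, with earlier results of these data known. Of them 6 begin with Psm (Psma5, Psmc2, Psmc6, Psmd6, Psmd14 and Psmd10) and 1 begins with Usp and a digit (Usp2). Stambpl1 was added by name. Psmb8, a subunit of the immunoproteasome, was left out by the rule. All 8 genes were listed in each of the 3 comparisons. The cells were hippocampal microglia, the resident macrophages of the brain, of 48 Balbc/Byj pups of both sexes, 17 days old. UPS pups (16) and LB pups (16) had been exposed to the rearing conditions with those names in the labels, and CTL pups (16) to the control condition. LB is known as limited bedding and nesting, and UPS as unpredictable postnatal stress. About 60000 microglia per pup were sorted by flow cytometry after a Percoll gradient, and their lysate was counted on the nCounter glial panel, which counts RNA molecules with fluorescent barcodes and no amplification. Each of 4 batches held 2 pups of every group and sex. For each group and sex the 8 pups were drawn from 4 to 5 litters, and the p-values do not allow for likeness within a litter, which would make them too small.

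The proteasome is the protease that degrades most short-lived proteins of the cell. Substrates are tagged with ubiquitin chains by a cascade of activating, conjugating and ligating enzymes, are recognised and unfolded by the regulatory particle with its ring of ATPases, and are cut inside the barrel-shaped core. Deubiquitinases remove ubiquitin: some spare a protein from degradation or change its sorting, and 1 of them, Psmd14, sits in the regulatory particle itself. In macrophages and microglia the proteasome is known for releasing NF-kB from its inhibitor and for making peptides for antigen presentation.

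Each value is a log2 ratio or p from the authors' own comparisons, and no values per animal were used here. Levels and the spread between animals are therefore not given. The headers leave the numerator of a ratio unnamed, so signs are given as deposited. With CTL or LB as the baseline, a positive sign would mean a higher level in UPS pups (in LB pups for LB and CTL), and with the opposite baseline all signs turn together. The contrast between genes of opposite sign holds under both readings. In these purified but pooled cells, fewer cells with a transcript and less of it per cell cannot be told apart.

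The deubiquitinases carried the differences among these 8 genes. Usp2, a cysteine protease that deubiquitinates regulators of the cell cycle and of metabolism and whose transcript cycles with the circadian clock in many tissues, had a log2 ratio of 0.20 between UPS and CTL, or 1.15-fold, in the authors' deposited table. Its p of 1.39e-05 (adjusted p = 0.00171) in the authors' deposited table placed it 3rd of 478 genes by p, while it was 37th by the size of the ratio. Between UPS and LB its log2 ratio was also 0.20 (1.15-fold, p = 1.68e-05, adjusted p = 0.000802 in the authors' deposited table), which ranked 10th by p. The 95% interval recovered from the ratio and its p ran from 1.08-fold to 1.21-fold in both comparisons. For LB and CTL the ratio of Usp2 was 0.0024 (p = 0.953, adjusted p = 0.979 in the authors' deposited table), with an interval from 0.947-fold to 1.06-fold. UPS thus stood apart from both other groups for Usp2, while any difference between LB and CTL above 1.06-fold in either direction lay outside the interval. The comparisons with UPS share the same 16 UPS libraries, so the second is no independent repeat of the first.

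Stambpl1, a zinc-dependent deubiquitinase of endosomes that trims ubiquitin chains used for receptor sorting, had the same sign. Its log2 ratio was 0.18 between UPS and CTL, or 1.13-fold (p = 0.000441, adjusted p = 0.0199 in the authors' deposited table), and it was 10th of 478 genes by p. The interval ran from 1.06-fold to 1.21-fold. With the stricter Holm and Benjamini-Yekutieli adjustments Stambpl1 did not pass between UPS and CTL (adjusted p = 0.207 and 0.134, n = 16 per group, range over all alternatives 0.00301 to 0.207). Between UPS and LB the ratio was 0.14, or 1.10-fold (p = 0.00361), and it missed the threshold of 0.05 in the authors' deposited table (adjusted p = 0.0519). That interval ran from 1.03-fold to 1.18-fold. Centring the ratios on the median of all genes gave an adjusted p of 0.0364 for Stambpl1 between UPS and LB. Leaving out the least precise genes gave 0.0479 (range over all alternatives 0.0208 to 1). The lower ends of both ranges for Stambpl1 come from a normal test that can only lower a p-value. Its LB and CTL ratio was 0.034 (p = 0.469, adjusted p = 0.794 in the authors' deposited table).

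Both deubiquitinases therefore passed between UPS and CTL, where 4.81% of all genes passed by Benjamini-Hochberg adjustment of the authors' nSolver p-values. Between UPS and LB 1 of 2 passed, against 6.28% of all genes. Neither passed between LB and CTL (0% of all genes), and neither had an unadjusted p below 0.05, which 11.7% of all genes had there. The pair was chosen with earlier results of these data known, so these shares are not those of an unselected list. The plot of ratios by gene shows the pair on the positive side in both comparisons with UPS.

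**Figure D1:**
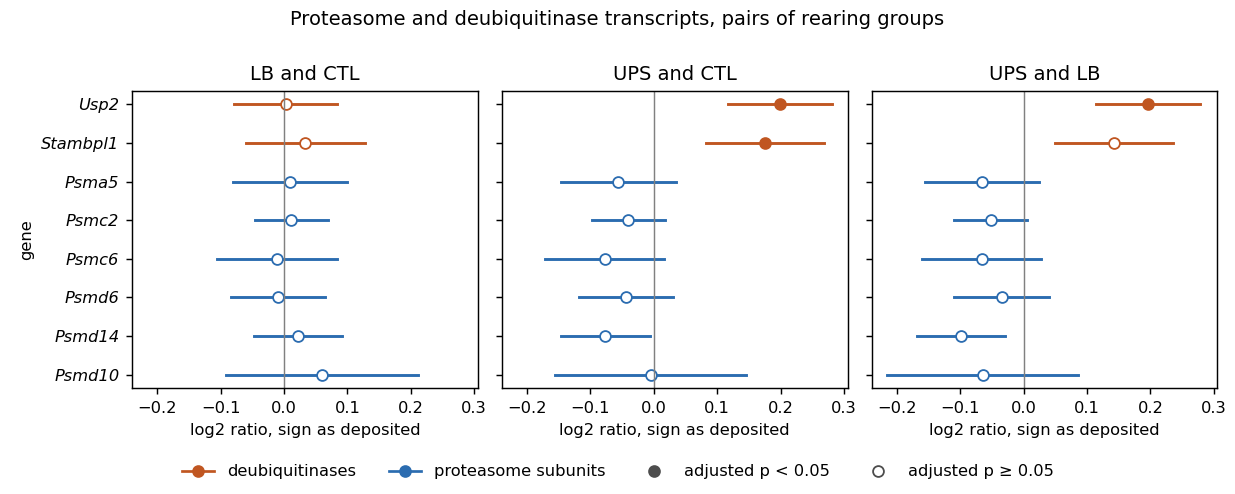
Log2 ratio of each of the 8 genes (x axis, sign as deposited) in the comparisons of LB and CTL, UPS and CTL, and UPS and LB (panels); lines are recovered 95% intervals and filled points passed an adjusted p of 0.05. Usp2 and Stambpl1 lie at 0.14 to 0.20 in the panels with UPS, all 6 proteasome genes lie below 0 there, and every interval in the LB and CTL panel spans 0.

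The promoter windows of the 3 among these 8 genes with the smallest p in the comparisons with UPS are shown, so that shared motifs can be looked for next to the ratios of Usp2, Stambpl1 and Psmd14. Each is 300 bases from RefSeq, GRCm38.p6, plus strand, from 250 bases before a transcription start to 50 bases after it. Usp2 has 1 window in the table, at chr9:44084670-44084969, for a start 17899 bases inside the annotated gene. Stambpl1 has 4, of which the first, at chr19:34191979-34192278, is shown. The window of Psmd14 is at chr2:61711444-61711743. Capitals mark matches on either strand to TGACNNNGC (the core of the antioxidant response element), CACGTG (the E-box that clock factors bind) or CCAAT.
Usp2: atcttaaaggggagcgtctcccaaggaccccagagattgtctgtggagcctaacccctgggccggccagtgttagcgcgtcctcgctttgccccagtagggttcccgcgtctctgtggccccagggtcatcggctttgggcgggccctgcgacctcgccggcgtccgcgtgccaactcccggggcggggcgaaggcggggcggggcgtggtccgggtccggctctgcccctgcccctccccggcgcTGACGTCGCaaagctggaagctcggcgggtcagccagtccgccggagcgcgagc
Stambpl1: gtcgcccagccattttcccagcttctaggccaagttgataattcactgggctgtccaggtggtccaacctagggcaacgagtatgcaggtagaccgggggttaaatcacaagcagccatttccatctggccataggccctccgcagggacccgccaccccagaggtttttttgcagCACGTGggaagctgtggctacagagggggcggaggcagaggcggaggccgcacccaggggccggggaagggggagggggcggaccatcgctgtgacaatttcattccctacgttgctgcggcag
Psmd14: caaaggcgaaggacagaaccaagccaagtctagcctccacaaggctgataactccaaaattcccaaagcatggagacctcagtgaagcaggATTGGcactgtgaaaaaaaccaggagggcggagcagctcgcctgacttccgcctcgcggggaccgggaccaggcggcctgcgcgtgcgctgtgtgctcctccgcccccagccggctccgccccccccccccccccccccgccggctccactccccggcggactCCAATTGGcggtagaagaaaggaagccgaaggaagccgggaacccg
Usp2 had a TGACNNNGC match across its start, which 12.4% of all 32851 windows hold, and no CACGTG in this window. Stambpl1 had a CACGTG at positions -74 to -69 from the start, in the first of its 4 windows only (7.15% of all windows). Psmd14 had 3 CCAAT matches, 2 of them on opposite strands and overlapping just after the start (37.4% of all windows hold at least 1). All 8 genes had a window, 12 in all. Of these, TGACNNNGC was found in 2 (Usp2 and Psmc6), CACGTG in 1 and CCAAT in 5, and no motif was held by both deubiquitinases in the windows shown or by all 6 proteasome genes. The matches describe letters in these windows, and binding was not measured.

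None of the 6 proteasome genes passed in any comparison by the authors' nSolver p-values, and their ratios in the comparisons with UPS were smaller than those of the deubiquitinases. At an unadjusted p below 0.05 there was 1, Psmd14, between UPS and CTL and between UPS and LB, and 0 between LB and CTL. That is 1 of 6 genes beside 16.3% and 18.8% of all genes, a share near that of the panel, and 0 of 6 beside 11.7%. Psma5, a subunit of the outer alpha ring of the core through which substrates enter, had a log2 ratio of -0.056 between UPS and CTL (p = 0.217, adjusted p = 0.551) and -0.066 between UPS and LB (p = 0.151, adjusted p = 0.457) in the authors' deposited table. Its interval allows a difference of up to 1.11-fold in size in each of them. For LB and CTL it was at 0.0094 (p = 0.835 in the authors' deposited table). Psma5 was the 1 core subunit measured of 8 alpha subunits searched for, beside 0 of 7 standard beta subunits.

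The ATPases Psmc2 and Psmc6, which belong to the ring that unfolds substrates, had ratios of like size. Psmc2 was at -0.040 between UPS and CTL (p = 0.167, adjusted p = 0.481) and -0.052 between UPS and LB (p = 0.0758, adjusted p = 0.326) in the authors' deposited table. It was the most precise of the 8 genes, with a recovered standard error of 0.028 on the log2 scale, and a difference above 1.08-fold lay outside all 3 of its intervals. Psmc6 was at -0.078 between UPS and CTL (p = 0.104, adjusted p = 0.403) and -0.066 between UPS and LB (p = 0.164, adjusted p = 0.474) in the authors' deposited table. Psmc2 was at 0.012 and Psmc6 at -0.011 when LB and CTL were compared in the authors' deposited table.

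In the lid of the regulatory particle, Psmd14 stood farther from 0 than its neighbour Psmd6. Psmd14 is the metalloprotease that removes ubiquitin chains from substrates as they enter, and belongs to the same JAMM family of deubiquitinases as Stambpl1. Its log2 ratio was -0.076 between UPS and CTL (p = 0.0325, adjusted p = 0.268), and -0.098 between UPS and LB (p = 0.00683, adjusted p = 0.0778) in the authors' deposited table. Its interval was 0.904-fold to 0.995-fold between UPS and CTL, and 0.890-fold to 0.980-fold between UPS and LB. These exclude a ratio of 1 for a single gene but do not account for the 478 genes tested. With a standard error recovered as if from a fit of 2 groups and a normal test, Psmd14 passed between UPS and LB (adjusted p = 0.0387, n = 16 per group, range over all alternatives 0.0387 to 1). That setting refits nothing and can only lower a p-value, so this pass adds no support. The scaffold subunit Psmd6 was at -0.044 between UPS and CTL (p = 0.243) and -0.035 between UPS and LB (p = 0.354) in the authors' deposited table. The LB and CTL ratio of Psmd14 was 0.022 (p = 0.53) and that of Psmd6 -0.0091 (p = 0.807) in the authors' deposited table.

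Psmd10, also called gankyrin, is a chaperone that helps to assemble the regulatory particle and leaves it before completion, so it is a proteasome gene by name more than a subunit. It had ratios of -0.0047 between UPS and CTL (p = 0.95) and -0.065 between UPS and LB (p = 0.393) in the authors' deposited table. Its ratio between LB and CTL, 0.060 (p = 0.428 in the authors' deposited table), was the largest of the 8 genes there. Psmd10 was also the least precise of them, with a recovered standard error of 0.075 that 78.5% of all genes undercut, and differences of up to 1.16-fold lie within its intervals.

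Set beside each other, the 2 deubiquitinases had a median log2 ratio of 0.19 between UPS and CTL and the 6 proteasome genes one of -0.050, while the median of all 478 genes was -0.0025. Between UPS and LB the medians were 0.17 for the deubiquitinases, -0.065 for the proteasome genes and -0.010 for all genes. Between LB and CTL the median was 0.018 for the deubiquitinases, 0.011 for the proteasome genes and 0.0035 for all genes. All 6 proteasome genes had a negative ratio between UPS and CTL, as did 51.3% of all genes, and all 6 did between UPS and LB, as did 56.1% of all genes. Between LB and CTL 4 of the 6 were positive, as were 52.7% of all genes. The 6 signs are not independent, since the genes were measured in the same libraries and their correlation between animals was not available, and the difference between the lists was not tested. Over the intervals, the lowest value allowed for Usp2 between UPS and CTL, a log2 ratio of 0.12, lay above the highest allowed for 5 of the 6 proteasome genes. The exception was Psmd10, whose interval reached 0.15. How many of all 478 genes lay below Usp2 in this way was not counted, so the intervals do not set the proteasome genes apart from the panel. Psmd14, a deubiquitinase by activity, had the sign of the proteasome genes and not that of Usp2 and Stambpl1.

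**Figure D2:**
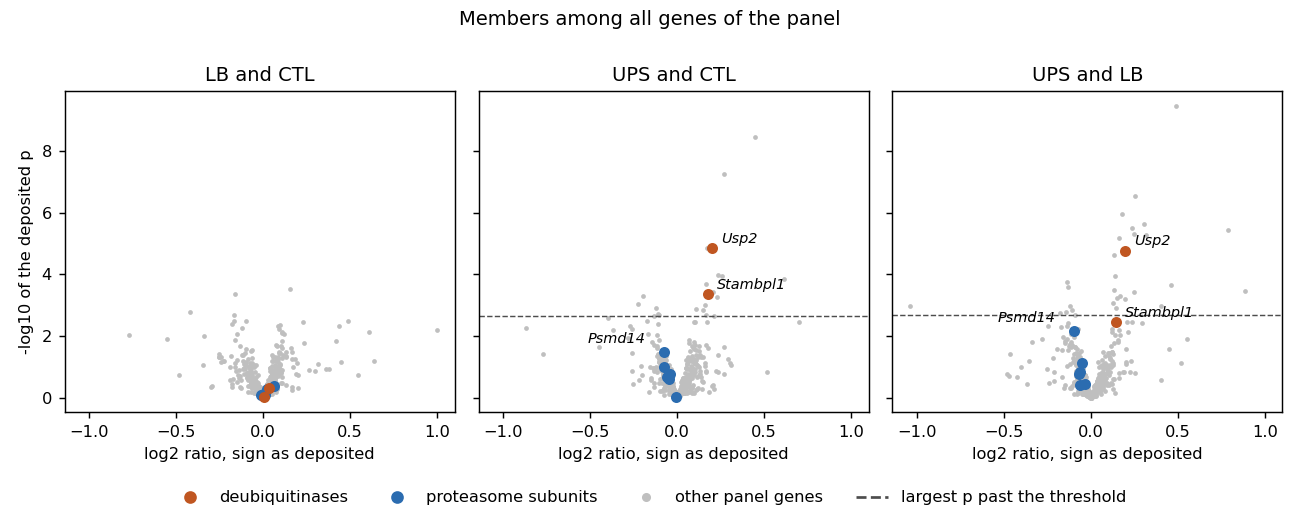
Each point is 1 of 478 genes by its log2 ratio (x axis, sign as deposited) and the -log10 of its deposited p (y axis) for LB and CTL, UPS and CTL, and UPS and LB; the dashed line marks the largest p that passed. Usp2 lies above the line in both panels with UPS, Stambpl1 above it for UPS and CTL and just below it for UPS and LB, and the 6 proteasome genes lie below it, with Psmd14 nearest.

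A joint test of the 3 rearing groups was rebuilt for every gene from the deposited ratios and the recovered standard errors, with p-values adjusted by Benjamini-Hochberg over all 478 genes. It called 33 genes (6.9% of all genes). Usp2 was 5th by this test (F = 15.9, adjusted p = 0.000634, n = 16 per group) and Stambpl1 23rd (F = 8.20, adjusted p = 0.0203). Psmd14 was the first of the proteasome genes, 64th in all (F = 4.46, p = 0.0175, adjusted p = 0.130, n = 16 per group), and the adjusted p of the other 5 lay between 0.439 (Psmc2) and 0.779 (Psmd10). The joint test combines the 3 comparisons above and adds no data to them.

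The other ubiquitin pathway genes searched for gave 1 call, a share near that of all genes. Genes outside those lists, such as the tripartite motif proteins, were not counted. Of 25 further genes, from the conjugating enzymes to the ubiquitin shuttles, 1 passed between UPS and CTL with a negative and 0 with a positive ratio, where 4.81% of all genes passed. None passed between UPS and LB (6.28% of all genes) or between LB and CTL (0%). An unadjusted p below 0.05 was found for 4 of the 25 between UPS and CTL, 3 between UPS and LB and 2 between LB and CTL, against 16.3%, 18.8% and 11.7% of all genes. The gene that passed was Cdc23, which belongs to the anaphase-promoting complex, a ligase that tags cell cycle proteins for the proteasome, at -0.14 (p = 0.00222, adjusted p = 0.0461 in the authors' deposited table). All 4 measured genes of that complex had negative ratios between UPS and CTL, as did 51.3% of all genes, with Anapc7 at -0.105 (p = 0.32), Anapc1 at -0.081 (p = 0.0423) and Cdc27 at -0.066 (p = 0.112) in the authors' deposited table. All 4 were negative between LB and CTL too, with a median of -0.069, and 2 of the 4 were negative between UPS and LB, so these signs do not set UPS apart from LB. The median log2 ratio of the 25 genes was -0.042 between UPS and CTL and -0.034 between UPS and LB, against -0.0025 and -0.010 for all genes and -0.050 and -0.065 for the proteasome genes. None of 28 further deubiquitinases and related genes searched for was listed. Nor was any of 10 proteasome activators, inhibitors and assembly factors or of 6 transcription factors of proteasome genes.

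Among the 9 subunits and adaptors of cullin ligases, the largest class of ubiquitin ligases, 8 had negative ratios between UPS and CTL, as did 51.3% of all genes. None of the 9 passed there, where 4.81% of all genes passed. Between UPS and LB 8 of the 9 were negative too, as were 56.1% of all genes. The scaffold Cul1 was at -0.10 (p = 0.0379, adjusted p = 0.294) and the RING subunit Rbx1 at -0.059 (p = 0.131) between UPS and CTL in the authors' deposited table. Skp1a, the adaptor between Cul1 and its substrate receptors, had the opposite sign there, 0.042, and 0.090 between LB and CTL (p = 0.0325, adjusted p = 0.406) in the authors' deposited table. All 3 conjugating enzymes, Ube2d2a/b (1 name for a pair of near-identical genes), Ube2g1 and Ube2n, lay between -0.035 and 0.042 between UPS and CTL in the authors' deposited table.

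Ube4b, a ligase that extends ubiquitin chains, was at -0.081 between UPS and CTL (p = 0.0499, adjusted p = 0.304) and -0.074 between UPS and LB in the authors' deposited table. Among the shuttles and chaperones that bring substrates to the proteasome, none of 5 passed in any comparison, and the median between UPS and CTL was 0.0020. Sqstm1 was at -0.076 and Ubqln2 at -0.051 between UPS and CTL, while Hsp90ab1 (0.125), Rad23b (0.0097) and the fifth gene were positive there in the authors' deposited table. Hsp90ab1, a chaperone, carried the sign of the deubiquitinases, with 0.21 between UPS and LB (p = 0.00753, adjusted p = 0.0809) in the authors' deposited table.

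**Figure D3:**
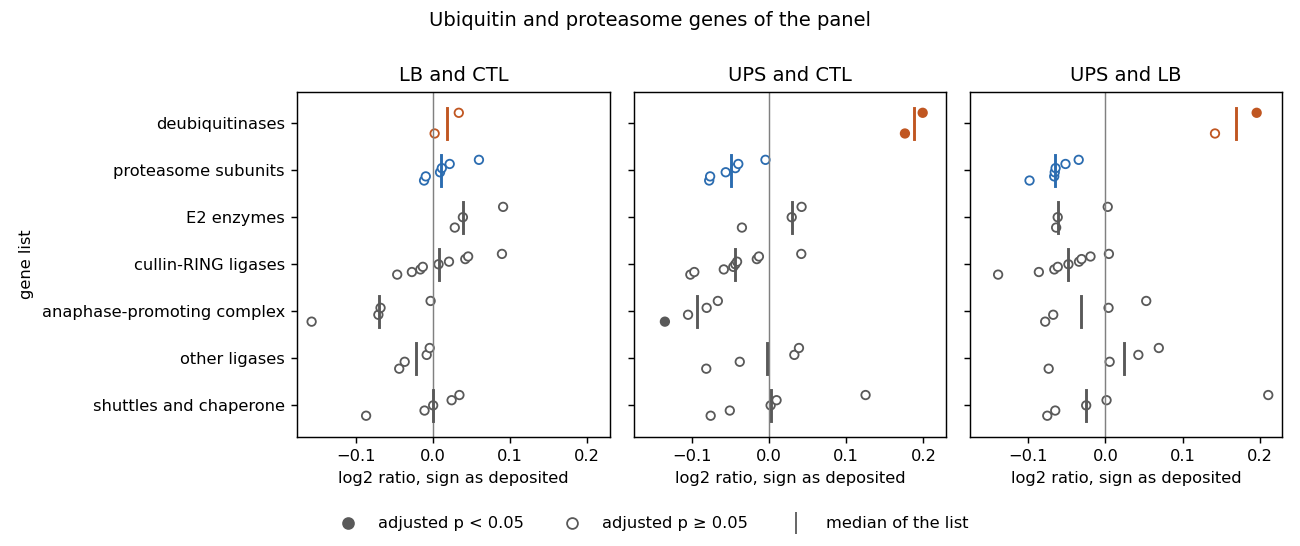
Log2 ratios (x axis, sign as deposited) of the deubiquitinases, the proteasome genes and 25 other ubiquitin pathway genes by list (y axis). Panels are the comparisons of LB and CTL, UPS and CTL, and UPS and LB. Circles are genes, filled where the adjusted p was below 0.05, and bars are list medians. Between UPS and CTL, Usp2, Stambpl1 and Cdc23 are the filled points.

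Genes of antigen presentation had another order of signs. None of the 4 measured passed between LB and CTL, UPS and CTL or UPS and LB, where 0%, 4.81% and 6.28% of all genes passed. H2-D1, B2m and the transporter Tap1 serve the class I pathway, which presents peptides made by the proteasome, while Cd74 is the invariant chain of the class II pathway, which presents peptides from endosomes and lysosomes. All 4 had positive ratios between UPS and CTL, with a median of 0.084, where the 6 proteasome genes were negative and 233 of all 478 genes were positive. Between UPS and LB all 4 were negative, with a median of -0.14, as were 56.1% of all genes. Between LB and CTL all 4 were positive, with a median of 0.23, as were 52.7% of all genes. Cd74 was at 0.297 (p = 0.135) between LB and CTL and -0.213 (p = 0.28) between UPS and LB in the authors' deposited table. At an unadjusted p below 0.05 there were 2 of 4 between LB and CTL (H2-D1 and Tap1), against 11.7% of all genes, and 0 in either comparison with UPS, against 16.3% and 18.8%.

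All 18 microglial markers searched for were on the panel, but their levels were not available to check the sort. Between UPS and CTL none of the 18 passed (5 had an unadjusted p below 0.05, against 16.3% of all genes). Between UPS and LB 4 of the 18 passed, all with a positive ratio, against 6.28% of all genes. Of 10 measured markers of other cells 2 passed between UPS and CTL (4.81% of all genes), with the sign and about the size of Usp2: Slc1a3, an astrocyte glutamate transporter (0.21, adjusted p = 0.0461), and Stab1, a scavenger receptor of border macrophages (0.205, adjusted p = 0.0197) in the authors' deposited table. Both passed between UPS and LB as well (6.28% of all genes did), at 0.25 and 0.195 in the authors' deposited table. The 10 markers had ratios from -0.77 (Klrd1, of natural killer cells) to 0.27 between UPS and CTL, and 5 of them were positive. Between UPS and LB 8 of the 10 were positive and 2 negative, while 210 of all 478 genes were positive. The median of the 10 there was 0.087, against -0.010 for all genes. An unadjusted p below 0.05 was found there for 5 of the 10, against 18.8% of all genes. The part of these 10 markers in the ratios of Usp2 and Stambpl1 was not tested.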

How the data were processed

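RNA was counted on the nCounter glial panel in 48 libraries run in 4 batches. Per the file headers, each deposited table gives every one of 478 genes its log2 ratio, the same ratio on a linear scale, a p-value and that p-value after Benjamini-Hochberg adjustment. There are 3 tables, 1 for each pair of groups. Per the series text, the authors used the advanced analysis of nSolver with batch as a covariate. How the counts were normalized is not given in the sources used here, and depth per library is unknown. The deposited p-values were adjusted again over the 478 genes of each table, with a threshold of 0.05. A standard error was recovered for each gene by dividing the log2 ratio by the t quantile of its two-sided p, with 42 residual degrees of freedom. That number belongs to a model of the 48 libraries with rearing and batch. Of 6 candidate models it gave the best match between tables (median mismatch 0.223%), 3 other models of the 48 libraries came close (0.278% to 0.321%), and models of 2 groups gave 1.37% or more. The UPS and LB ratio equalled the difference of the other ratios to within 0.003, for either direction of the ratios. The joint F test uses those standard errors and equal groups, and was tested on simulated data. The members and gene lists were chosen with earlier results of these data known. All members are named, and from each other list up to 4 genes by smallest p, except that 1 is not reported here. Promoters came from RefSeq, whose gene table held 476 of 478 symbols. Python 3.11.15, scipy 1.17.1 and pandas 2.3.3 were used.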

Additional observations from a re-analysis of the deposited data

How the results depend on the processing

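The calls were recomputed with the authors' deposited adjusted p, with the 3 tables adjusted together, and with Holm or Benjamini-Yekutieli adjustment. Further settings were ratios centred on the median of all genes, a 2-group normal test, and leaving out the genes of the largest standard errors (358 of 478 kept). For the 2-group normal test, a standard error was recovered from the deposited p as if from a fit of 2 groups. The ratio was then read against a normal curve. This refits nothing and can only lower a p-value. Usp2 passed in both comparisons with UPS under all 7 (adjusted p from 1.53e-05 to 0.0115 against CTL and from 8.48e-06 to 0.00788 against LB). Under Holm and under Benjamini-Yekutieli adjustment 1 deubiquitinase passed between UPS and CTL in place of 2, since Stambpl1 was lost. Between UPS and LB 2 passed in place of 1 after centring, with the 2-group normal test and without imprecise genes. The 2-group normal test also called 1 proteasome gene, Psmd14, between UPS and LB in place of 0. Its extra calls follow from its lowering of every p-value, as do the lower ends of the ranges of Usp2 above. They are no evidence of robustness. Of 165 recomputed values of single genes, 159 stayed on their side of the threshold and none that had passed changed sign. Many of the 165 could not have moved, so this total overstates how stable the calls are. The deposited adjusted p repeats the main adjustment, and Holm and Benjamini-Yekutieli can only raise a p-value. Medians of both lists moved by less than the spread of their members. Over all genes, Holm adjustment called 5 genes between UPS and CTL and 11 between UPS and LB, and Benjamini-Yekutieli 4 and 13, against 23 and 30. The 2-group normal test called 46 between UPS and LB. Between LB and CTL, 3 genes passed with the tables adjusted together and 2 by the 2-group normal test, against 0. Beyond the built-in direction of the 2-group normal test and of the stricter adjustments, the causes of these changes were not tested. The joint F test, added after the data had been seen, called the same 2 deubiquitinases and 0 proteasome genes. No paired analysis was possible because the tables hold comparisons and no values per library, and for the same reason no replicate could be left out.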
